A study of Mus musculus with 11 samples.

Results

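The mitochondrial ribosomal protein genes were followed across 3 groups of mouse bone marrow cells, of which 1 carried a single leukemia mutation and the others carried a pair of mutations gained in opposite orders. A gene belonged to the set when its annotated mouse symbol was Mrpl or Mrps followed by a number and at most 1 letter, it was protein-coding, and its mean raw count over the 11 samples was at least 10. Of 51912 genes in the count table, 15008 reached that mean and 78 had such a symbol. The set held 77 members, and Mrpl53 was left out because its mean count was 0.0909. All 77 members were among the 15703 genes tested. The rule used symbols and mean counts over all samples, and no difference between groups entered it. By known position in the ribosome, 50 members belong to the large subunit and 26 to the small subunit. Mrps30 and Mrps18a were counted with the large subunit, where their proteins sit in spite of their names. The remaining member, Mrps36, is named as a ribosomal protein but is known as a part of the 2-oxoglutarate dehydrogenase complex. The members lie on 17 chromosomes.

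Mitochondria keep their own ribosomes, which translate the few messenger RNAs of mitochondrial DNA into core subunits of the respiratory chain. The ribosomal RNAs are made inside the organelle, whereas every protein of these ribosomes is encoded in the nucleus, translated in the cytosol and imported. Some of the proteins have counterparts in bacterial ribosomes, and others were gained in the mitochondrial lineage. Myeloid leukemia cells are known to depend on mitochondrial translation, and neutrophils lose much of their mitochondrial activity as they mature.

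The cells were lineage-negative bone marrow of C57BL/6 mice, sorted for 2 fluorescent retroviral vectors. One vector was always on, and the other was switched on by Cre recombinase. CSF3R-only cells (n = 4) carried constitutive CSF3R T618I, a receptor mutation that signals without ligand, and an empty inducible vector. CSF3R-first cells (n = 3) carried constitutive CSF3R T618I and inducible CEBPA V314VW, a mutation in the DNA-binding domain of a myeloid transcription factor. CEBPA-first cells (n = 4) carried constitutive CEBPA V314VW and inducible CSF3R T618I. Cells of all groups, CSF3R-only included, were cultured without added cytokines for 48 h with 500 nM 4-hydroxytamoxifen, which activates an ERT2-Cre expressed from the Rosa26 locus. The oncogenes were expressed from retroviral vectors, not from the mouse genes. No group carried mutant CEBPA alone or empty vectors alone, so the data hold no comparison with cells free of mutant CSF3R. The labels do not say whether replicates A to D were separate animals or cultures, and p-values measure the spread between these samples only.

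Each sample held 47905747 to 72268346 counts. Levels are given as CPM, the counts of a gene per 1000000 counts of the TMM-normalized library. Members varied together between replicates of a group. CSF3R-only replicate B had the highest value of its group for 75 of the 77 members, replicate A had the lowest for 57, CSF3R-first replicate A the lowest for 50, CEBPA-first replicate D the highest for 56 and CEBPA-first replicate C the lowest for 55. The coefficient of variation of a member had a median of 10.4% within CSF3R-only, 5.89% within CSF3R-first and 5.26% within CEBPA-first. Without CSF3R-only replicate B, CEBPA-first against CSF3R-only gave a median member log2 fold change of 0.62 and 73 called members, and CSF3R-first against CSF3R-only gave 0.36 and 67.

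The members summed to the lowest level in CSF3R-only and to the highest in CEBPA-first. Their summed level was 2496, 3075, 2740 and 2610 CPM in CSF3R-only replicates A to D. It was 3254, 3519 and 3428 CPM in CSF3R-first replicates A to C. It was 4019, 3978, 3782 and 4182 CPM in CEBPA-first replicates A to D. The 3 groups did not overlap. The group means were 2730 ± 250 CPM (SD, n = 4), 3400 ± 135 CPM (n = 3) and 3990 ± 165 CPM (n = 4), so that the sum was 1.46 times as high in CEBPA-first as in CSF3R-only and 1.25 times as high in CSF3R-first as in CSF3R-only. As a share of all raw counts, without TMM scaling, the members made up 0.260% ± 0.0234 (CSF3R-only), 0.344% ± 0.0291 (CSF3R-first) or 0.417% ± 0.0253 (CEBPA-first). In bulk RNA, more cells of a type and more RNA per cell cannot be told apart.

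**Figure D1:**
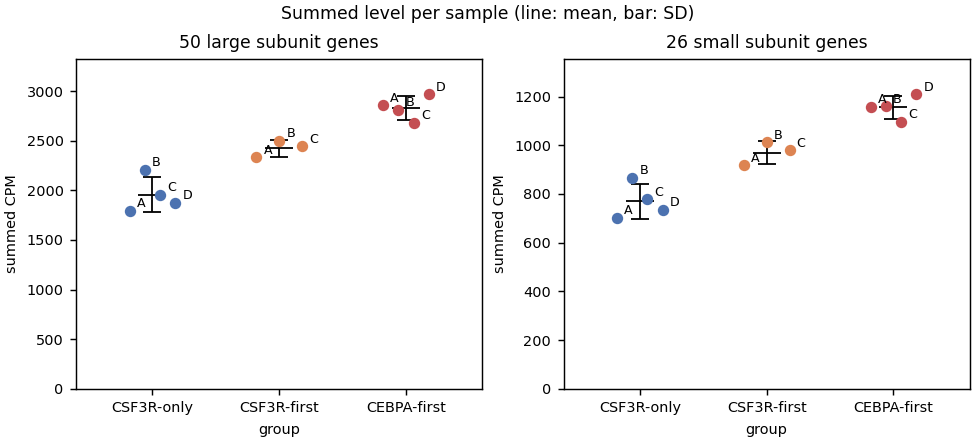
Summed CPM of the 50 large subunit members (left) and the 26 small subunit members (right) in each sample, by group, with each point lettered by replicate, the line at the group mean and the bar showing the SD. By group, large subunit sums averaged 1957 CPM (CSF3R-only), 2426 CPM (CSF3R-first) or 2830 CPM (CEBPA-first), and small subunit sums averaged 770, 970 and 1156 CPM, with no overlap between groups in either panel.

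CEBPA-first cells were compared with CSF3R-only cells to ask how cells given mutant CEBPA before mutant CSF3R differed from cells with the receptor mutation alone. Nearly the whole set was higher in CEBPA-first. Of 77 members, 71 rose, 2 fell and 4 were not called at an edgeR adjusted p of 0.05. Of all genes tested, 72% were called in this comparison, 35.4% higher and 36.6% lower, so that a call by itself was common here. The median member log2 fold change was 0.56 (quartiles 0.41 and 0.75), a fold of 1.47, where the median of all genes tested was -0.0045. In 69 members every CEBPA-first sample was above every CSF3R-only sample, and in 2 every sample was below, against 34.2% and 34.5% of genes tested. The size of the changes was modest, since 8 members passed 1 log2 unit up or down, against 27% of genes tested.

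**Figure D2:**
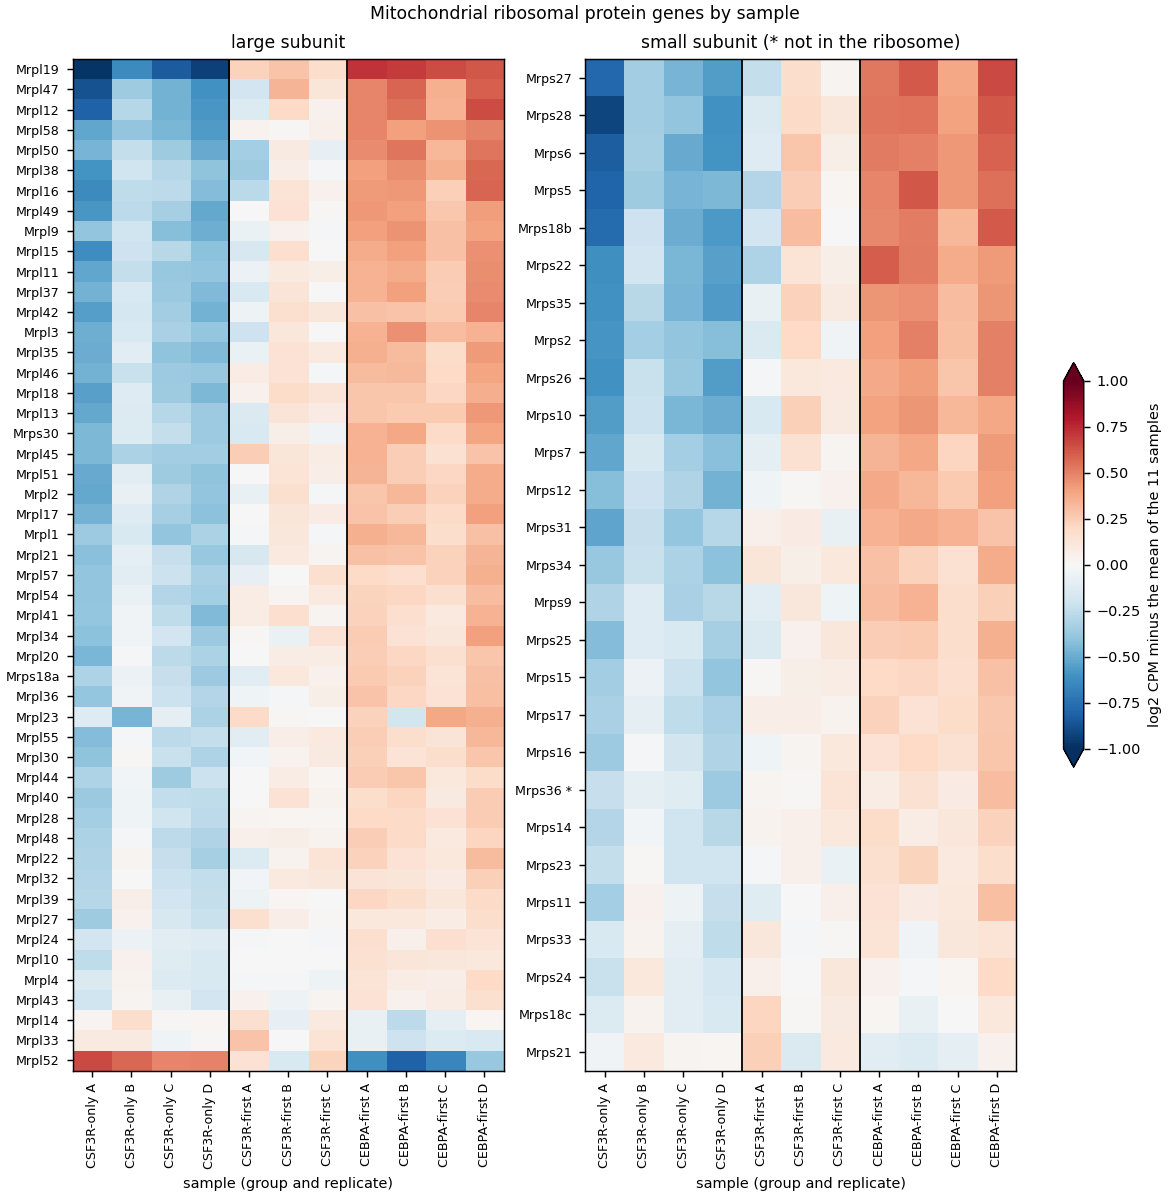
Heat map of the 77 members (rows) in the 11 samples (columns), as log2 CPM minus the member's mean over all samples, with large subunit genes on the left and small subunit genes on the right, each sorted by the change in CEBPA-first against CSF3R-only. Most rows run from blue in CSF3R-only to red in CEBPA-first, Mrpl52 runs the other way, and Mrpl14, Mrpl33, Mrps18c, Mrps21 and Mrps24 stay pale.

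The largest rise was that of Mrpl19, a large subunit protein with a bacterial counterpart. Mrpl19 was at 30.7, 39.0, 34 and 31.8 CPM in CSF3R-only replicates A to D, at 71.3, 73.9 and 68.6 CPM in CSF3R-first and at 99.9, 98.6, 95.3 and 93.5 CPM in CEBPA-first. The 3 groups were far apart, and it was the only member past 1 log2 unit in both comparisons with CSF3R-only. It rose in CEBPA-first against CSF3R-only by a log2 value of 1.52 (SE 0.072, edgeR adjusted p = 2.7e-09). Of its exon bases, 36% overlap the gene Gcfc2, whose own log2 fold change was 0.95. Whether the counting used strand is not given in the sources used here, and the part of these shared bases in the value was not tested.

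Of the other members that rose most, Mrpl12 encodes the flexible stalk protein that recruits translation factors to the large subunit. Mrpl12 was at 23.5, 33.8, 29.7 and 27.5 CPM in CSF3R-only, 37.3, 47.2 and 42.4 CPM in CSF3R-first and 57.8, 60.3, 52.3 and 64.5 CPM in CEBPA-first. Its groups did not overlap, and it rose in CEBPA-first against CSF3R-only by 1.04 (SE 0.11). The remaining stalk proteins rose too, Mrpl11 by 0.74 and Mrpl10, which anchors the stalk to the ribosome, by 0.24. In the small subunit Mrps27, a protein of the pentatricopeptide repeat family that binds RNA, rose by 1.08. Mrps27 was at 12.9, 17.5, 16.1 and 15.2 CPM in CSF3R-only, 18.9, 25.1 and 22.7 CPM in CSF3R-first and 32.2, 34.1, 29.2 and 35.1 CPM in CEBPA-first. Mrps28 (1.08), Mrps6 (1.06) and Mrpl47 (1.07) rose by a similar size. Mrps5, which lines the channel where messenger RNA enters the small subunit, rose by 1.03 from 29.3 ± 3.73 CPM to 59.8 ± 3.39 CPM. Mrps24, its partner in that channel, was at 47.6 ± 4.96 and 53.2 ± 3.64 CPM with overlapping groups (log2 fold change 0.16, edgeR adjusted p = 0.073).

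**Figure D3:**
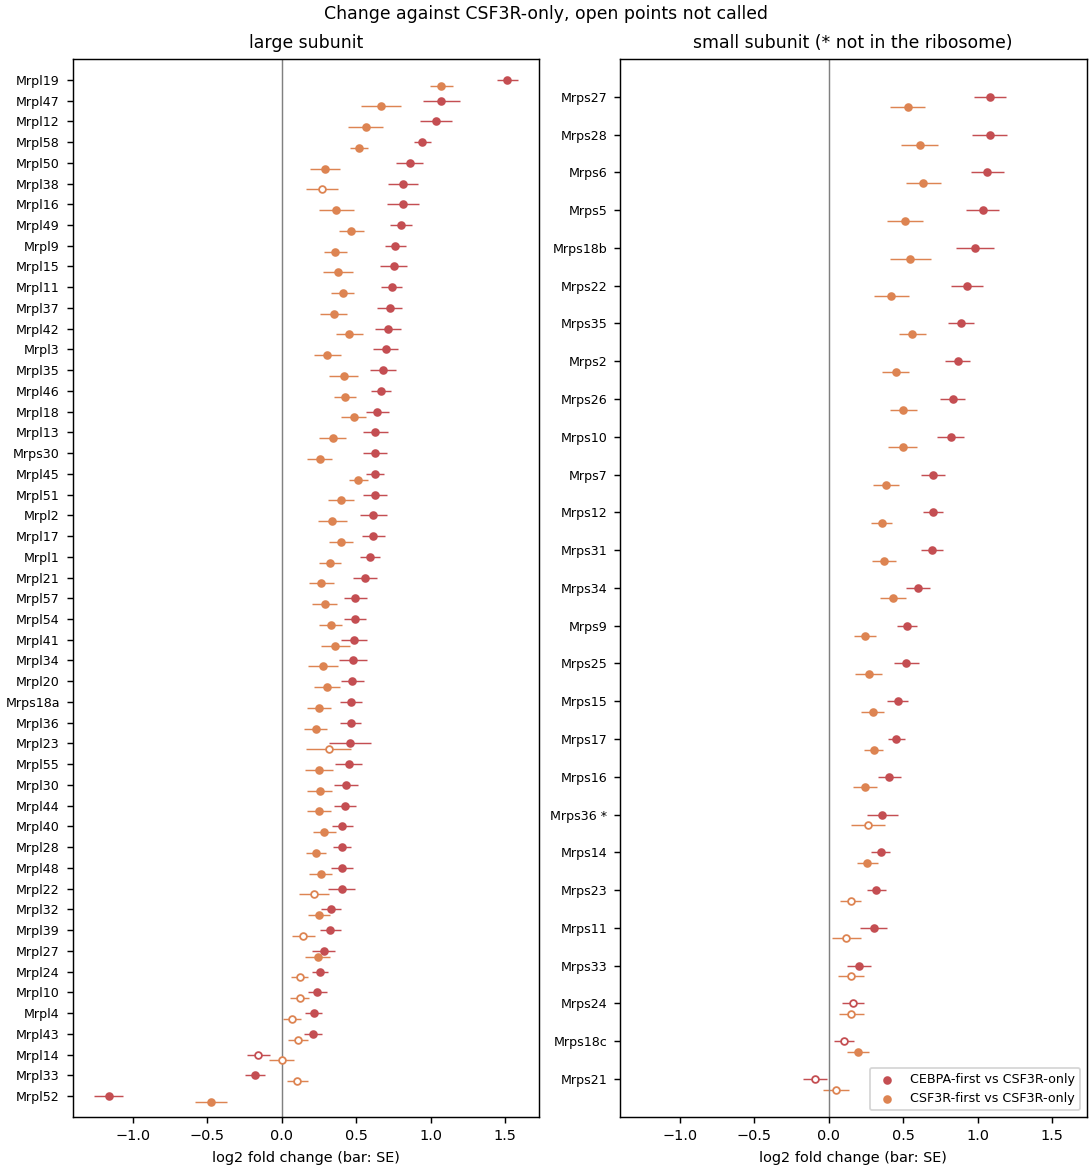
Log2 fold change against CSF3R-only of each member in CEBPA-first (red) and CSF3R-first (orange), with bars of 1 SE and open points for changes not called, for the large subunit on the left and the small subunit on the right. The red points range from -1.16 for Mrpl52 to 1.52 for Mrpl19, and the orange points lie mostly between 0 and the red ones.

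Rises were found in each region of the ribosome for which well-placed proteins were listed, and these lists do not hold every protein of a region. The 8 members listed for the central protuberance, where the large subunit meets the small one, all rose (median log2 fold change 0.63), led by Mrpl58 (0.95), an enzyme that frees stalled peptides from the ribosome. Mrpl58 was among the members with the least spread, at 18.4 ± 0.950, 26.3 ± 0.403 and 35.4 ± 0.905 CPM (means in the order CSF3R-only, CSF3R-first, CEBPA-first). The 6 proteins listed around the exit of the peptide tunnel all rose (median 0.44), among them Mrpl45 (0.62), which ties the ribosome to the inner membrane, Mrpl44 (0.42) and Mrpl23 (0.46). For Mrpl23, at 3.64 ± 0.427 and 5.01 ± 0.843 CPM, the groups overlapped. The 4 proteins listed for the large subunit core near the 16S ribosomal RNA rose, Mrpl16 by 0.81, Mrpl3 by 0.70, Mrpl2 by 0.62 and Mrpl4 by 0.22. The 5 proteins listed for the small subunit head rose by 0.35 (Mrps14) to 0.82 (Mrps10), with Mrps7 at 0.70, Mrps31 at 0.69 and Mrps9 at 0.52. Mrps12, the protein of the decoding centre that bears on reading accuracy, rose by 0.70 from 30.1 ± 2.52 to 48.8 ± 2.18 CPM.

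Of the 3 members related to bacterial protein S18, Mrps18a and Mrps18b rose in CEBPA-first against CSF3R-only and Mrps18c was not called there. These paralogues sit at different sites, Mrps18a in the large subunit and Mrps18b and Mrps18c in the small one. Mrps18b was at 9.33, 13.8, 11.2 and 10.7 CPM in CSF3R-only, 13.9, 19.6 and 15.8 CPM in CSF3R-first and 22.1, 22.6, 19.9 and 24.2 CPM in CEBPA-first. Its groups did not overlap, although CSF3R-first replicate A was just above CSF3R-only replicate B, and it rose in CEBPA-first against CSF3R-only by 0.98 (SE 0.13). Mrps18a rose by 0.46 (SE 0.075). Mrps18c was at 27.3, 30.9, 28 and 27.0 CPM in CSF3R-only, 34.8, 30.3 and 31.9 CPM in CSF3R-first and 30.4, 28.6, 30.0 and 32.4 CPM in CEBPA-first, and its groups overlapped in each comparison (log2 fold change 0.10, SE 0.068, edgeR adjusted p = 0.20), although it was called higher in CEBPA-first with library size scaling alone. Mrps18c was called higher in CSF3R-first against CSF3R-only (0.19, SE 0.074, edgeR adjusted p = 0.048). That call was lost with upper quartile normalization, with either other filter on low counts, with the replicate block, with the compared groups alone, and without any single sample other than CSF3R-only replicate B, CSF3R-first replicate B or CEBPA-first replicate D. Of the exon bases of Mrps18b 30.5% overlap Gm16279, and near-identical stretches elsewhere cover 38.6% of its transcript. For Mrps18c the values are 23.2%, with Gm43511, and 22.8%, and Mrps18a has neither. The part of these in the values was not tested, nor were the differences between the paralogues.

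By subunit, 47 of 50 large subunit members rose and 2 fell (median 0.53), and 23 of 26 small subunit members rose and none fell (median 0.64). The small subunit sum changed by a factor of 1.5 and the large subunit sum by a factor of 1.45. The mean log2 CPM of the small subunit members lay below that of the large subunit members by 0.459 to 0.496 among CSF3R-only samples, 0.407 to 0.455 among CSF3R-first samples and 0.365 to 0.394 among CEBPA-first samples, so that the gap was narrower in CEBPA-first with no overlap between groups. On the scale of summed CPM the gap between the subunits was -1.35 ± 0.0097, -1.32 ± 0.0214 and -1.29 ± 0.0104 on log2 in the same order, and there CSF3R-first (-1.35 to -1.30) overlapped CSF3R-only (-1.35 to -1.33). Among 46 members with a bacterial counterpart 41 rose and 1 fell (median 0.50), and among 31 without one 30 rose and 1 fell (median 0.62). Mrps18a and Mrps18b were counted with the latter, since their proteins sit at other sites than bacterial S18. Of 35 members that share no exon bases with another gene and have no near-identical stretch elsewhere, 34 rose and 1 fell (median 0.52). Of the other 42, 37 rose and 1 fell (median 0.58). Most of the exon bases of Mrps34 (77.8%) and Mrps25 (69.8%) lie in other genes, and near-identical copies cover 86.0% of the Mrpl22 transcript and 72.6% of that of Mrpl27 and 54.1% of that of Mrps21, so the values of these 5 are uncertain.

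Of the members that went against the set, Mrpl52 fell most clearly. It encodes a large subunit protein without a bacterial counterpart and was at 46.1, 43.5, 41.0 and 41.2 CPM in CSF3R-only, 32.3, 26.3 and 34 CPM in CSF3R-first and 19.1, 16.6, 18.6 and 22.4 CPM in CEBPA-first. The 3 groups did not overlap, in the falling order CSF3R-only, CSF3R-first, CEBPA-first, which was found in no other member. It changed on the log2 scale by -1.16 between CSF3R-only and CEBPA-first (SE 0.099, edgeR adjusted p = 3.7e-07), by -0.48 between CSF3R-only and CSF3R-first (SE 0.11, edgeR adjusted p = 0.0037) and by -0.69 between the orders of mutation (SE 0.11, edgeR adjusted p = 0.00027). Mrpl52 shares no exon bases with another gene and lies on the plus strand of chromosome 14 of GRCm38 from 54426909 to 54429756. The next gene downstream on the same strand, Mmp14, which encodes a membrane metalloproteinase, starts 1856 bases beyond its end and was at 105 ± 12.1, 50.9 ± 18.7 and 11.8 ± 3.21 CPM, so that CEBPA-first was below CSF3R-only by a log2 value of -3.16. Mmp14 was looked up after the value of Mrpl52 was known, and its part in that value was not tested. Mrpl33 was at 70.3, 70.4, 64.3 and 66.8 CPM in CSF3R-only, 80.5, 65.9 and 72.8 CPM in CSF3R-first and 63.0, 57.3, 60.3 and 59.5 CPM in CEBPA-first. Its CEBPA-first samples were below all others, by a small margin against CSF3R-only (log2 fold change -0.18, SE 0.066, edgeR adjusted p = 0.026). That call was lost with library size scaling alone (-0.04), without a filter on low counts (-0.10), with DESeq2 (-0.16), and without CSF3R-only replicate A (-0.17) or B (-0.16) or CEBPA-first replicate B (-0.16), C (-0.18) or D (-0.17).

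**Figure D4:**
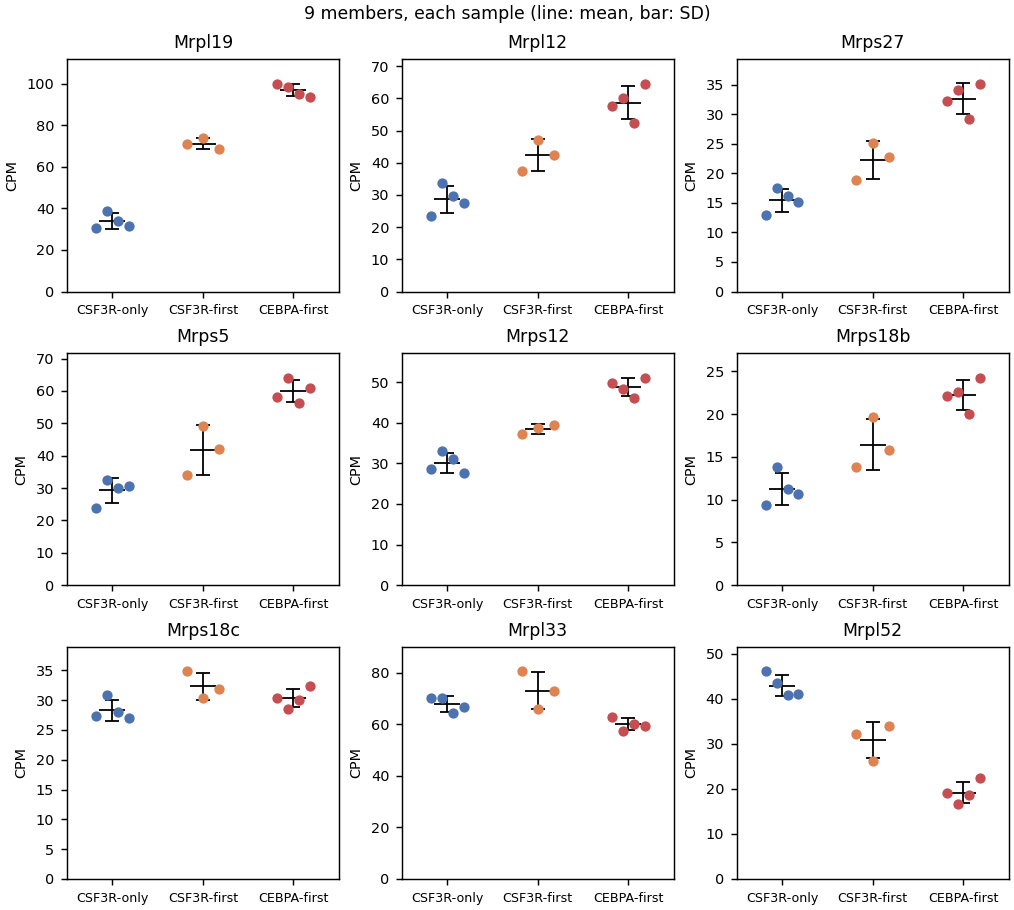
CPM of 9 members in each sample by group, with the line at the group mean and the bar showing the SD; each vertical axis starts at 0. Mrpl19, Mrpl12, Mrps27, Mrps5, Mrps12 and Mrps18b rise from CSF3R-only to CEBPA-first, Mrps18c overlaps between groups, Mrpl33 is lowest in CEBPA-first and Mrpl52 falls in the same order.

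No comparison called Mrpl14, Mrps21 or Mrps24 with the settings used throughout, although each was called under some alternative. Mrpl14, a large subunit protein next to the subunit interface, averaged 25.7 ± 1.43, 25.7 ± 2.14 and 23.0 ± 1.85 CPM over the groups in the same order (log2 fold change -0.16 between CEBPA-first and CSF3R-only, edgeR adjusted p = 0.083). Mrps21, of the small subunit, was at 23.9 ± 0.880, 24.7 ± 3.25 and 22.3 ± 1.28 CPM (-0.10, adjusted p = 0.30), and its sign turned with library size scaling alone (0.04). The samples of the 3 groups overlapped for each of these genes. In CEBPA-first against CSF3R-only, Mrps24 was called higher with library size scaling alone, without a filter on low counts and without CSF3R-only replicate B, and Mrpl14 was called lower with at least 10 counts in every sample and without CEBPA-first replicate D. Without CSF3R-only replicate B, Mrps24 was also called higher in CSF3R-first against CSF3R-only. Mrps21 was called lower in CEBPA-first against CSF3R-first without CSF3R-first replicate B.

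CSF3R-first was compared with the same 4 CSF3R-only samples to ask what the second mutation added when CEBPA came late. The comparisons share those samples, so their values are set side by side and are not independent of each other. In CSF3R-first, 60 members rose, 1 fell (Mrpl52) and 16 were not called. Of all genes tested, 42.7% were called, 21.6% higher and 21.1% lower. The median member log2 fold change was 0.31, a fold of 1.24, against -0.02 for all genes tested, and 45 members were higher and 1 lower with no overlap between groups, where 20.7% and 21.4% of genes tested were. The count of called members moved more with single libraries than that of CEBPA-first. It was 40 without CSF3R-first replicate B, and between 46 and 67 without any other of the 11 samples. Mrpl19 alone passed a log2 fold change of 1 (1.07, SE 0.076), against 6.65% of genes tested. Next came Mrpl47 at 0.67, Mrps6 at 0.63, Mrps28 at 0.61 and Mrpl12 at 0.57. Mrpl45 was among the members with most of their change already present in CSF3R-first, at 63.7 ± 2.53, 91.0 ± 5.70 and 98.2 ± 5.51 CPM over the groups in the same order, and Mrpl18, at 82.3 ± 10.3, 115 ± 5.78 and 129 ± 5.62 CPM, was another.

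The 2 orders of mutation were then compared directly. In CEBPA-first against CSF3R-first 41 members were higher, 2 lower (Mrpl52 and Mrpl33) and 34 not called, where 48.3% of genes tested were called, 24% higher and 24.3% lower. The median member log2 fold change was 0.22, a fold of 1.16, against 0.00052 for all genes tested. The groups did not overlap in 59 members that were higher and 2 that were lower, against 27.4% and 24.8% of genes tested (52.2% in all). No member passed a log2 fold change of 1, where 12.8% of genes tested did. The largest difference in size was the lower level of Mrpl52 (-0.69, SE 0.11, edgeR adjusted p = 0.00027). The largest rises were those of Mrpl50 (0.57, SE 0.10, edgeR adjusted p = 0.00065), Mrps27 (0.55), Mrpl38 (0.54) and Mrps5 (0.52). Mrpl50, a large subunit protein without a bacterial counterpart, was at 38.1 ± 5.60 CPM in CSF3R-first and 56.5 ± 3.68 CPM in CEBPA-first. Leaving out CSF3R-first replicate A lowered the count of called members to 29, and leaving out CSF3R-only replicate B raised it to 53. In all, 40 members were called higher in each of the 3 comparisons and Mrpl52 was called lower in each, where 14.5% and 14.2% of genes tested were.

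CSF3R-first lay between the other groups for nearly every member. Its mean log2 CPM was between theirs for 74 of 77 members (96.1%), against 76.1% of all genes tested, and the exceptions were Mrpl33, Mrps18c and Mrps21. All samples of the 3 groups fell apart in the rising order CSF3R-only, CSF3R-first, CEBPA-first for 39 members (50.6%), against 14.2% of genes tested, and in the falling order for Mrpl52 alone, against 13.4%. With CSF3R-only set to 0 and CEBPA-first to 1, the 73 members called in CEBPA-first against CSF3R-only had a median CSF3R-first position of 0.556, and all genes called in that comparison one of 0.468. By CSF3R-first replicate, the median over these 73 members was 0.436 (A), 0.667 (B) and 0.603 (C). Over all genes called in that comparison it was 0.293, 0.611 and 0.497. Replicate A was thus nearest to CSF3R-only both for the called members and for all called genes. It also had the highest summed level of neutrophil markers of its group, at 26171 CPM against 14962 (B) and 17999 CPM (C), near the lowest CSF3R-only sample (27831 CPM), and the lowest sum of dividing cell markers, at 4916 CPM against 5845 (B) and 5340 CPM (C). Their part in its member levels was not tested.

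The promoters are shown because the members moved together, and they are the windows from 250 bases before to 50 bases after the annotated start in RefSeq (GRCm38.p6). Of the 77 members, 68 matched, with 74 windows of 300 bases. The motif CCGGAAG, bound by ETS factors such as GABPA, was found on either strand in 33.8% of these windows, against 16.5% of the 13899 windows of genes tested and 8.86% of all 32851 windows. AAGATGG, the core of the YY1 site, was in 17.6% against 6.96% and 6.34%, and GCGCATG, a part of the NRF1 site, in 10.8% against 6.48% and 3.91%. The E-box CACGTG, bound by MYC and others, was in 9.46% against 9.50% and 7.15%, and CCAAT, bound by NFY, in 39.2% against 37.6% and 37.4%. At least 1 of the ETS, YY1 and NRF1 motifs stood in 50% of the member windows and in 26.8% of those of genes tested, and the letters of none of the 5 motifs are contained in another. The median GC content was 58.5% in member windows and 60% in those of genes tested. Matches are given as a description of the letters and not as sites in use.

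The windows of 3 members that rose, Mrps27, Mrps18b and Mrps12, and of Mrpl52, which fell, are printed with motif letters in capitals and each sequence 5′ to 3′ on the strand of its gene. For Mrps27 (chr13:99344536-99344835, plus strand) capitals mark an ETS motif on the opposite strand and a YY1 motif. For Mrps18b (chr17:35916391-35916690, minus strand) they mark an NRF1 motif near each end and an ETS motif, all on the opposite strand.
Mrps27: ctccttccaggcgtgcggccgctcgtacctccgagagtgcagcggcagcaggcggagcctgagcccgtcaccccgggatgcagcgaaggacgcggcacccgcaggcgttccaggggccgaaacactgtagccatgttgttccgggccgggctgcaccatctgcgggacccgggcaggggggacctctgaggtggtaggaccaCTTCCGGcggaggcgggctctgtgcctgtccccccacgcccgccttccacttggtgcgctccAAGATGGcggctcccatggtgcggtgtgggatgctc
Mrps18b: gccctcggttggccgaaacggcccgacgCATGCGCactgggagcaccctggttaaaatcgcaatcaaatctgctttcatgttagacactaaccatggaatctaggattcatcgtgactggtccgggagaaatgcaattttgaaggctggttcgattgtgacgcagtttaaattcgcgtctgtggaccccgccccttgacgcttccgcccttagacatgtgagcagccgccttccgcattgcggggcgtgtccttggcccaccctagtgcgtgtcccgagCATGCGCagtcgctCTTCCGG

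For Mrps12 (chr7:28741772-28742071, minus strand) capitals mark a YY1 motif on the opposite strand, 4 CCAAT motifs and an ETS motif at the start. For Mrpl52 (chr14:54426659-54426958, plus strand) they mark a YY1 motif and 2 ETS motifs on the opposite strand, the last of them just past the annotated start. YY1 and ETS letters were also in the windows of Mrps27 and Mrps12, which rose.
Mrps12: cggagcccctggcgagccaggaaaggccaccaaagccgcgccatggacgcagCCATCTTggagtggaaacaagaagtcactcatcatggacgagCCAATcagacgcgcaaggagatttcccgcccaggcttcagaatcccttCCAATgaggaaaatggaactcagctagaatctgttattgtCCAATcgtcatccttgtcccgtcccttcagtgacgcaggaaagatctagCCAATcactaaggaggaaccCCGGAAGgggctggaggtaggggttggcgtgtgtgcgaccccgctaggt
Mrpl52: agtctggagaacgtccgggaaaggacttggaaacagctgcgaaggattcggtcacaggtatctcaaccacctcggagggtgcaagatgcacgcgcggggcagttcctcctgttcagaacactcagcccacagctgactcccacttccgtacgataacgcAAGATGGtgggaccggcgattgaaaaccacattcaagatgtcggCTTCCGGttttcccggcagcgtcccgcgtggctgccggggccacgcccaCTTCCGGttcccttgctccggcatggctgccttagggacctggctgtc

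Many members start close to another gene on the opposite strand. A protein-coding gene on the opposite strand had its start within 1000 bases, in the divergent orientation, for 33 of 77 members (42.9%), against 16.2% of the 12904 protein-coding genes tested. Pairs whose 5′ ends overlap were counted too, and some of these share exon bases, as 33.4% of those of Mrpl43 with Twnk. The use of strand in the counting is not given, and the part of shared bases in the paired values was not tested. Mrpl46 and Mrps11, whose 5′ ends overlap, share such a start region with each other. They rose by 0.67 and 0.30 in CEBPA-first against CSF3R-only. Of 29 tested partners that are no members, 18 rose (62.1%) and 6 fell (20.7%) in that comparison, with a median of 0.29. Of all genes tested, 35.4% were higher and 36.6% lower. Mrps12 starts 172 bases from Sars2, the mitochondrial serine tRNA synthetase, and they rose by 0.70 and 0.87. Mrps27 starts 81 bases from Ptcd2, another mitochondrial RNA-binding protein, and they rose by 1.08 and 0.66. Other partners went the opposite way, as Mrpl2 (0.62) with Klc4 (-1.48), Mrpl44 (0.42) with Wdfy1 (-0.96) and Mrpl10 (0.24) with Lrrc46 (-1.91).

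Levels between genes were compared as CPM per kilobase of annotated exon (RPKM), as means over the 11 samples. They were highest for Mrpl18 (77.3 RPKM), Mrpl36 (72) and Mrpl34 (58.7) and lowest for Mrpl23 (0.898), Mrps36 (3.31) and Mrpl48 (3.70). The order depends on the length taken for a gene. With the median length of the protein-coding transcripts, a choice made after seeing the data, Mrpl20 (172 RPKM, and 51.1 by annotated exons), Mrpl33 (139, and 9.07) and Mrpl36 (117) were highest and Mrps25 (4.61), Mrpl47 (5.23) and Mrpl23 (6.34) lowest, while Mrpl48 stood at 34.9.

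Other genes of mitochondrial translation were followed in lists of known function. Of the 5 mitochondrial ribosomal proteins with symbols outside the rule, 4 rose in CEBPA-first against CSF3R-only (median 0.84), namely Ptcd3 (1.0), Gadd45gip1 (0.89), Chchd1 (0.84) and Dap3 (0.41), a GTP-binding protein of the small subunit. The fifth, Aurkaip1, was at 73.1 ± 6.97 and 74.0 ± 3.47 CPM (0.02, edgeR adjusted p = 0.82). Of 24 assembly factors 19 rose and 1 fell (median 0.34), with Mrm3, a methyltransferase of the 16S ribosomal RNA, at 1.22, Tfb1m, a methyltransferase of the 12S ribosomal RNA, at 1.08, Noa1 at 1.03 and Ddx28, a helicase, at -0.24. Of 14 translation factors and regulators tested 13 rose and none fell (median 0.57), among them the elongation factors Tsfm (1.0) and Gfm1 (0.89) and the messenger RNA stabilizer Lrpprc (0.97). Of 20 mitochondrial tRNA synthetases 17 rose and none fell (median 0.78), with Mars2 at 1.09 and Yars2 at 1.06. Of 10 genes of mitochondrial DNA upkeep and transcription 8 rose and 1 fell (median 0.67). The topoisomerase Top1mt (1.53) and the helicase Twnk (1.05) rose, and Polg, the DNA polymerase, fell by 0.16.

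None of the RNAs that these ribosomes translate was called higher. Of the 13 messenger RNAs encoded in mitochondrial DNA, 8 were tested in CEBPA-first against CSF3R-only and none rose, mt-Co1 and mt-Nd5 fell (-1.01 and -0.51) and the median was -0.34. In CSF3R-first against CSF3R-only no call was made among the 8 (median 0.13). mt-Co1, a subunit of cytochrome oxidase, was at 1466 ± 182 CPM in CSF3R-only and 728 ± 293 CPM in CEBPA-first. The share of counts from the mitochondrial genome varied most within CEBPA-first, from 0.203% to 0.511%, with 0.414% to 0.515% in CSF3R-only and 0.461% to 0.543% in CSF3R-first. The 5 messenger RNAs that were not tested, mt-Nd4l, mt-Co2, mt-Co3, mt-Atp6 and mt-Atp8, lay at or near a count of 0 in every library, 3 of them with no count at all, which goes against what is known of their abundance, and the values of mitochondrially encoded genes depend on how reads were counted.

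**Figure D5:**
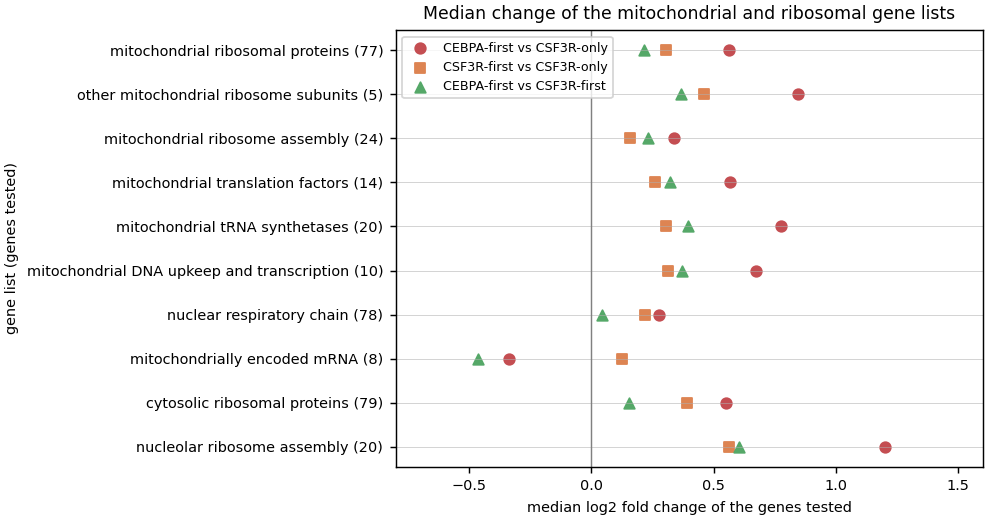
Median log2 fold change of the tested genes of 10 lists (number of genes tested in brackets) in CEBPA-first against CSF3R-only (circles), CSF3R-first against CSF3R-only (squares) and CEBPA-first against CSF3R-first (triangles). The members stand at 0.56, 0.31 and 0.22, the nucleolar genes at 1.20, 0.56 and 0.60, and the mitochondrially encoded messenger RNAs at -0.34, 0.13 and -0.46.

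Nuclear genes of the respiratory chain, whose proteins join the products of these ribosomes, are given beside the members, and the difference between the lists was not tested. Of 78 of them 53 rose and 2 fell in CEBPA-first against CSF3R-only (median 0.28), and 17 were higher and 3 lower in CEBPA-first against CSF3R-first (median 0.04), where 24% and 24.3% of genes tested were. Ndufa12 (0.77) and Atp5g1 (0.76) were among the largest rises, and Cox7a2l (-0.50) and Ndufa13 (-0.19) fell. Cytosolic ribosomal protein genes, the counterparts of the members outside the mitochondrion, rose in 73 of 79 cases and fell in 1 (Rpl3l, -2.09), with a median of 0.55 that was close to the 0.56 of the members. Between the orders of mutation 12 of these 79 were higher in CEBPA-first and 1 lower (median 0.15), beside 41 of the 77 members (median 0.22) and 24% of genes tested. The 20 genes of nucleolar ribosome assembly all rose (median 1.20), among them Ncl (1.34) and Nolc1 (1.48). Of 11 tested regulators of mitochondrial biogenesis and growth 6 rose and 1 fell (median 0.24). Myc, the growth regulator, averaged 158 ± 27.7, 283 ± 45.1 and 465 ± 16.3 CPM over the groups in the same order (1.56), Pprc1 rose by 0.97, Ppargc1b by 0.98, Gabpb1 by 0.35, Nrf1 by 0.27 and Gabpa by 0.24, Esrra fell by 0.31, and Yy1 was at 42.2 ± 2.06 and 41.7 ± 2.24 CPM (-0.02, edgeR adjusted p = 0.82).

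Markers of cell type and of division also differed between the groups, some in the direction of the members and some against it. Their part in the results was not tested. All 14 neutrophil markers fell in CEBPA-first against CSF3R-only (median -3.29). Their summed level was 27831 to 34381, 14962 to 26171 and 6559 to 8732 CPM over the groups in the order given for the members, although the cells had been sorted as lineage-negative before the culture. Fpr1, Ltf and Mmp9, receptors and granule proteins of mature neutrophils, fell by 6.47, 5.65 and 5.59 on the log2 scale. All 5 primary granule genes of earlier myeloid cells rose (median 1.27, sums of 2860 to 3499, 4777 to 5556 and 6300 to 6757 CPM in the same order of groups), with Elane at 1.27, Ctsg at 1.40 and Prtn3 at 1.51. All 18 markers of dividing cells rose in the same comparison (median 0.87), with sums of 3267 to 3951, 4916 to 5845 and 6330 to 7103 CPM, and their order of groups was that of the members. Of 11 monocyte and macrophage markers 10 fell and Ly6c2 rose (sums of 3097 to 3945, 1681 to 2995 and 928 to 1304 CPM). Of 8 erythroid markers 7 fell (sums of 249 to 361, 107 to 340 and 25.8 to 40.0 CPM), and all 7 megakaryocyte markers fell (sums of 906 to 1230, 347 to 541 and 113 to 156 CPM). Of 7 mast cell and basophil markers 4 fell and 1 rose (sums of 1507 to 2344, 970 to 1167 and 1087 to 1458 CPM). Of 11 stem and progenitor markers 6 rose and 4 fell (sums of 708 to 1044, 572 to 699 and 627 to 715 CPM). The 6 B cell markers summed to 3.71 to 4.55, 3.4 to 4.36 and 5.89 to 6.97 CPM, and the 5 T cell markers, 1 of them at 0 in every sample, to 1.64 to 2.34, 1.97 to 2.80 and 3.66 to 5.17 CPM. Only 2 genes of each list were tested, and they split, as Cd79b (0.82) and Lck (1.30) rose while Cd79a (-2.21) and Cd3d (-2.25) fell.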

How the data were processed

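RNA was extracted from 11 samples (RNeasy micro kit), libraries were made with the SMARTer universal low input kit, and single reads of 100 bases were sequenced. Per the labels and the methods of the study, the authors aligned trimmed reads with STAR to mm10 and deposited raw counts of reads per gene, whole numbers without normalization. The counting tool, the annotation and the use of strand are not given in the sources used here. Of the identifiers, 279 had no symbol.

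The members and gene lists were chosen with earlier results of these data known. Symbols and positions came from GENCODE vM21 (GRCm38). Counts of all genes were normalized with TMM and filtered with filterByExpr in edgeR 4.0.16 (R 4.3.3), and all 15703 genes left were tested in 1 quasi-likelihood fit of the 3 groups without covariates. The Benjamini-Hochberg adjustment ran over all genes tested. A gene was called at an adjusted p under 0.05, and a second count asked for an absolute log2 fold change of at least 1. Log2 CPM used a prior count of 2. Members named in the text were those with the largest changes, those at named sites of the ribosome, those never called and those highest and lowest per length. Other lists are given by counts, with some of their largest rises and falls, and the genes named from them were picked after their values were seen. Near-identical stretches (at least 100 bases at 97% identity) were searched with BLAST 2.17.0. Members summed to 115576 to 327541 counts per sample. The script was tested on simulated data. The alternatives were other normalizations (DESeq2 1.42.0 included), other filters, a replicate block, the compared groups alone and leaving out each sample.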

Additional observations from a re-analysis of the deposited data

Results flagged for a closer look

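In 3 of 96 groups of 4 samples examined among the named members and the summed measures, 1 sample stood apart from the others of its group, and chance gives about 1 in 20. Each was CSF3R-only replicate B, the replicate with the highest value in its group for 75 of the 77 members. It was at 27.8 CPM for Mrpl14, with the other CSF3R-only samples between 24.8 and 25.1 CPM. It was at 77.9 CPM for Mrpl4, with the others between 68.3 and 69.2 CPM. It was at 29.7 CPM for Mrpl48, with the others between 24.1 and 24.9 CPM.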

How the results depend on the processing

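The direction of the medians was positive in each comparison under every alternative run. Leaving out each sample gave 71 to 73 called members and a median log2 fold change of 0.51 to 0.62 in CEBPA-first against CSF3R-only, 40 to 67 and 0.26 to 0.36 in CSF3R-first against CSF3R-only, and 29 to 53 and 0.19 to 0.25 in CEBPA-first against CSF3R-first. The lowest of these counts came without CSF3R-first replicate B in the second comparison and without CSF3R-first replicate A in the third. Across all settings 70 members stayed higher in CEBPA-first against CSF3R-only, 36 in CSF3R-first against CSF3R-only and 26 in CEBPA-first against CSF3R-first. Scaling by library size only moved the first median to 0.69, where the median of all genes tested was 0.13. Without the 100 most counted genes, members held 0.326% of counts (CSF3R-only), 0.425% (CSF3R-first) and 0.499% (CEBPA-first). The gap between subunits was -1.35, -1.32 and -1.29 on summed CPM. Every CSF3R-first sample lay between the other means for 90.9% of members. The sign turned for 3 members that were not called. For Mrpl14 in CSF3R-first against CSF3R-only it was -0.011 with at least 10 counts in every sample and between -0.048 and 0.067 without single samples. For Mrps21 it was 0.039 with library size only in CEBPA-first against CSF3R-only, and between -0.042 and 0.14 without single samples in CSF3R-first against CSF3R-only. For Mrps24 in CEBPA-first against CSF3R-first it was -0.014 with at least 10 counts, -0.00053 with the replicate block, -0.020 with the compared groups alone and between -0.038 and 0.038 without single samples. The cause was not tested. Replicate letters were not taken as pairs, since the labels give them no meaning and not every same-letter pair correlated above 0.1 (-0.107 to 0.362, other letters -0.341 to 0.384). As a hint from the data, 9 of 10 same-letter pairs were positive, against 8 of 30 others, and 12 of 20 checks were best with the own letter. A replicate block gave 72, 61 and 42 called members with medians of 0.57, 0.30 and 0.22 in the 3 comparisons. The compared groups alone gave 51 called members in the second comparison, and DESeq2 gave 72, 61 and 43. The counting error of a member in 1 sample was 1.27% to 6.46% (median 2.06%, highest for Mrps36 and Mrpl23), and it was above the spread within the group for 0 members (CSF3R-only), 9 (CSF3R-first) or 2 (CEBPA-first).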
